A study of Homo sapiens with 5 samples.

Results

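The clustered histone genes are the protein-coding genes with the symbols H1-1 to H1-6, or with H2AC, H2BC, H3C or H4C followed only by a number, in the RefSeq table of the human assembly GRCh38.p14. There were 69 of them among 19866 protein-coding genes. FOXO3A binding was mapped by CUT&Tag, in which an antibody tethers a transposase that cuts and tags the nearby DNA, in THP-1 and U-937, established human lines that the labels class as acute myeloid leukemia cells. Neither line carried a labelled treatment or genetic change, every library used the same FOXO3A antibody, and the labels do not say whether libraries came from separate cultures. Among the 3 THP-1 and 2 U-937 libraries, peaks were listed for replicate 1 of THP-1 and replicate 1 of U-937 and for no other, so each line below is 1 library without a replicate check and without a control library, and no test between conditions could be made.

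Histones are the proteins around which DNA is wound: H2A, H2B, H3 and H4 form the core of the nucleosome and H1, the linker histone, binds outside it. The clustered genes are made active in S phase, when new chromatin needs new histones, and most lack introns and give mRNAs that end in a stem-loop in place of a poly(A) tail. Many lie as head-to-head pairs of an H2A and an H2B gene that share the promoter between them. FOXO3A is a forkhead transcription factor known for arresting the cell cycle and for acting downstream of AKT.

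The members were 6 H1, 17 H2A, 18 H2B, 13 H3 and 15 H4 genes. Most were short, with a median length of 494 bp (386 to 29682) and 61 of at most 1000 bp. Grouped as runs with gaps under 500 kb, 55 members lay in 3 clusters on chromosome 6. The first (25726063 to 26285534) held 34 members in 559 kb, the second (27132316 to 27147562) held 5 in 15.2 kb and the third (27807479 to 27893891) held 16 in 86.4 kb. Chromosome 1 held 11 members at 149782689 to 149887965 and the pair H2AC25 and H2BC26 at 228457364 to 228458558, and H4C16 lay alone on chromosome 12.

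The stretches before the starts of 5 genes are shown because they hold the 5 U-937 summits that lay within 250 bp of a histone gene's start. They come from RefSeq (GRCh38.p14), read 5′ to 3′ on the minus strand and end at the base before the gene's start. Capitals mark 3 elements for which histone promoters are known, on either strand. The TATA box, where the general transcription machinery binds, was searched as TATAAA. The element bound by the factor NF-Y was searched as CCAAT. The octamer that POU2F1 is known to bind in H2B promoters was searched as ATTTGCAT. TATAAA and its reverse overlap each other in the first 2 stretches and are capitalised as one run. The first 2 are the whole 247 bases between a pair of genes, and the other 3 are 250 bases each. The last, before H4C8, holds none of the 3 elements in the exact letters searched. It does hold TATAAG, near its right end, a spelling that was not searched.
H2BC11 to H2AC11, chr6:27132796-27133042, minus strand: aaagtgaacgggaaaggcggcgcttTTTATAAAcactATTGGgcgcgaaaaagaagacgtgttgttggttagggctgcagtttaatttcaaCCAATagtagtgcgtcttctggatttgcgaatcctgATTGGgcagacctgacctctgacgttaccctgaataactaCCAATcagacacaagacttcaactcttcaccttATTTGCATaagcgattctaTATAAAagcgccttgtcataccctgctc
H2BC12 to H2AC12, chr6:27146859-27147105, minus strand: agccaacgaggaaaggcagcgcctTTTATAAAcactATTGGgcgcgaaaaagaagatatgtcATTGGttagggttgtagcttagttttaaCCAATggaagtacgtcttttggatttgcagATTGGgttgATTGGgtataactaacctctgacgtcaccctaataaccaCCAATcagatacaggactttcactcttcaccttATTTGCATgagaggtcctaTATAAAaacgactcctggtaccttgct
H2AC4, chr6:26033619-26033868, minus strand: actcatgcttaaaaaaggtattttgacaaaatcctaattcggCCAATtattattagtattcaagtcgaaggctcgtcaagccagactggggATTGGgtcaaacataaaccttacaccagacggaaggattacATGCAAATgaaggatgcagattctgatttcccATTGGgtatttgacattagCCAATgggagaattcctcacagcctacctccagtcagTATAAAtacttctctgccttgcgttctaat
H2BC3, chr6:26043714-26043963, minus strand: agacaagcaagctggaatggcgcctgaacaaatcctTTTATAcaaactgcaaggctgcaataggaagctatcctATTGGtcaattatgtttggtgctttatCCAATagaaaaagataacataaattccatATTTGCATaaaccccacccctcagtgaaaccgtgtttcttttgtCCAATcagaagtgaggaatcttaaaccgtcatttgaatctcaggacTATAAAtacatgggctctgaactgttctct
H4C8, chr6:26285535-26285784, minus strand: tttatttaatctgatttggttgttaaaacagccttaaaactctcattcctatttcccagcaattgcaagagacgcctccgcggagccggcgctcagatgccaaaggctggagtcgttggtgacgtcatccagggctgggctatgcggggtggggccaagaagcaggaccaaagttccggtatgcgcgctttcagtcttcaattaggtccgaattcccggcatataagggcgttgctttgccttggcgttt
Of the U-937 peaks, 205 bases (82.3%) lay in the first stretch, 180 (60.0%) in the second, 161 (61.7%) in the third, 216 (76.3%) in the fourth and 140 (62.5%) in the fifth, with the summits at bases 143, 72, 224, 156 and 1 counted from the left. The first 2 stretches were identical in 202 of 251 alignment columns (80.5%). The promoter windows of H2BC11 and H2BC12, which hold 250 bases before and 50 after the start, were 74.4% identical, against a median of 50.3% over all 2016 pairs of the members' windows. That median spans different families, and some pairs were more alike. The windows of H2BC13 and H2BC14 were 82.2% identical and those of H2AC13 and H2AC14 86.8%, and none of these genes had a peak in either line.

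A peak counts here as lying at a gene when its summit is within 1000 bp of the gene's start or end. In THP-1, 8 of the 69 members had such a peak (11.6%, exact 95% interval 5.14 to 21.6), against 0.221% of all protein-coding genes. They shared 5 peaks, which were 13.5% of the 37 THP-1 peaks at protein-coding genes (4.54 to 28.8). In U-937, 10 members had a peak (14.5%, 7.17 to 25) against 7.02% of all protein-coding genes, from 7 peaks, 0.631% of the 1110 at protein-coding genes (0.254 to 1.29). Neighbouring histone genes share peaks and a library is not replicated, so intervals cover counting error only and treat genes as independent, which they are not.

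The histone share was a multiple of the background in THP-1 and nearer to it in U-937, where it can be set beside genes of similar layout. Other protein-coding genes of at most 1000 bp had a peak in 3 of 452 cases in THP-1 (0.664%, 0.137 to 1.93) and 2 of 452 in U-937 (0.442%, 0.0536 to 1.59), against 7 and 9 of the 61 histone genes of that length (11.5% and 14.8%). Other genes with another protein-coding gene's start or end within 1000 bp had a U-937 peak in 701 of 5619 cases (12.5%, 11.6 to 13.4) and a THP-1 peak in 11 (0.196%). The 40 histone genes with such a neighbour had one in 7 cases in U-937 (17.5%, 7.34 to 32.8) and 6 in THP-1 (15.0%, 5.71 to 29.8). The 29 without one had a peak in 3 cases in U-937 (10.3%, 2.19 to 27.4) and 2 in THP-1 (6.90%, 0.846 to 22.8). The U-937 share of histone genes with a close neighbour thus lay within counting error of that of other closely spaced genes. No test was run on these shares, because the gene list was chosen with results of these data known.

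**Figure D1:**
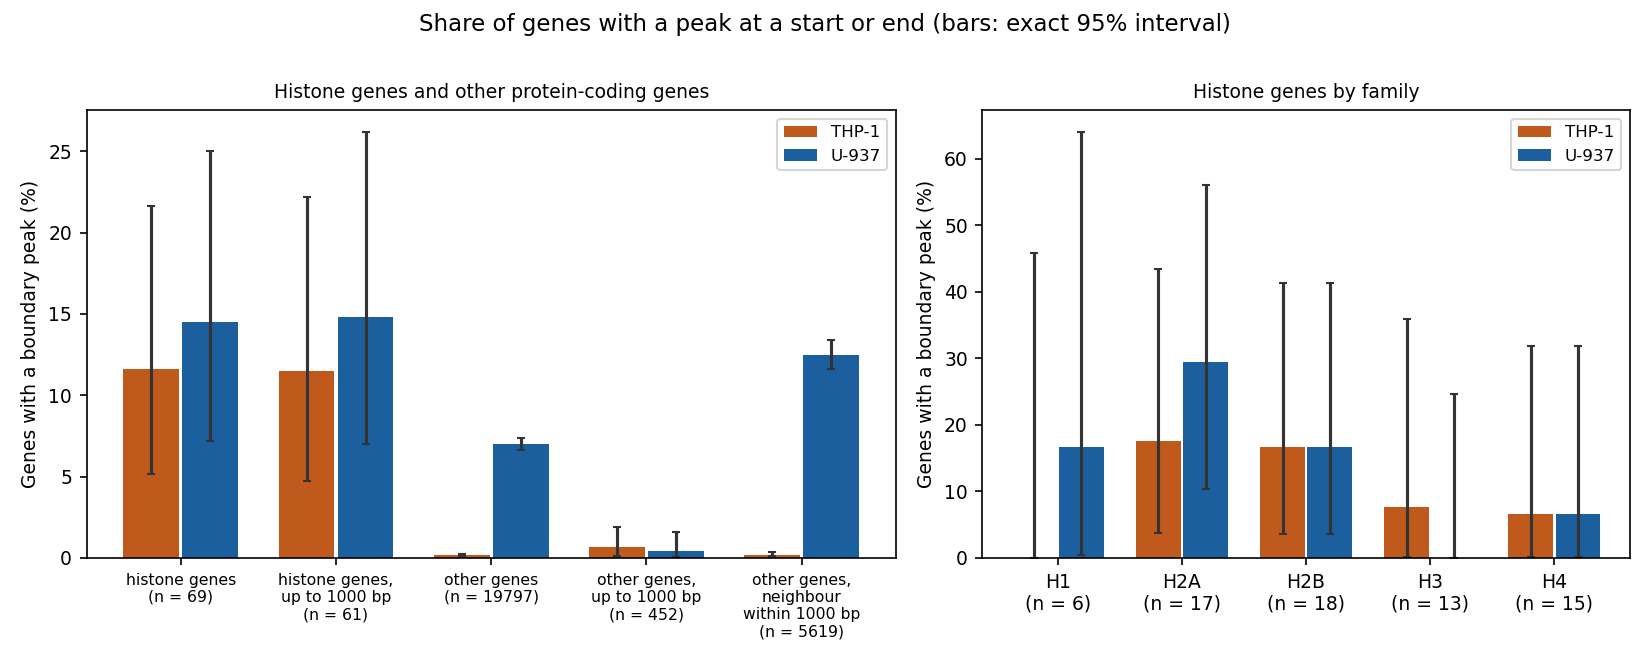
Percent of genes with a peak summit within 1000 bp of a start or end (y axis), for histone genes and groups of other protein-coding genes (left) and for the 5 histone families (right). Bars are the share in replicate 1 of THP-1 (orange) and U-937 (blue), lines are exact 95% intervals for counting error, and n is the number of genes. The THP-1 share was 11.6% for histone genes and 0.182% for other genes, while the U-937 shares were 14.5% and 7.0%.

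H2A and H2B genes, which were 35 of the 69 members, held 6 of the 8 with a THP-1 peak and 8 of the 10 with a U-937 peak. The shares below stand beside 0.221% of all protein-coding genes in THP-1 and 7.02% in U-937. H2A genes had a peak in 3 of 17 cases in THP-1 (17.6%) and 5 of 17 in U-937 (29.4%), and H2B genes in 3 of 18 cases in each line (16.7%). Paired genes share peaks, so the 6 H2A and H2B members with a THP-1 peak rest on 3 peaks and the 8 with a U-937 peak on 5. H3 had 1 of 13 in THP-1, H3C12, and 0 of 13 in U-937 (exact upper limit 24.7%). H4 had 1 of 15 in each line (6.67%), H4C4 in THP-1 and H4C8 in U-937, the U-937 share being near that of all genes. The linker histones had 0 of 6 in THP-1 (exact upper limit 45.9%) and 1 of 6 in U-937, H1-2. The family intervals overlap throughout, so these counts do not order the families.

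On chromosome 6 the lines had peaks at the same members in the second cluster. Both lines had peaks at 4 of its 5 members, H2BC11, H2AC11, H2BC12 and H2AC12, whereas the nearest summit to the fifth, H4C9, lay 6787 bp away in the THP-1 list and 6382 bp away in the U-937 list. In the first cluster, U-937 had 4 peaks, at H2AC4, H2BC3, H1-2 and H4C8, and THP-1 had 1, at H4C4. In the third, THP-1 had 1 peak, at H3C12, and U-937 had 0 at 16 members (exact upper limit 20.6%), its nearest summit being 119717 bp or more away. The U-937 share over all genes was 7.02%, so 0 of 16 lies near the background. On chromosome 1, U-937 had 1 peak, at H2AC20 and H2AC21, in the larger cluster, and THP-1 had 1 at the pair H2AC25 and H2BC26, while H4C16 on chromosome 12 had none in either list.

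**Figure D2:**
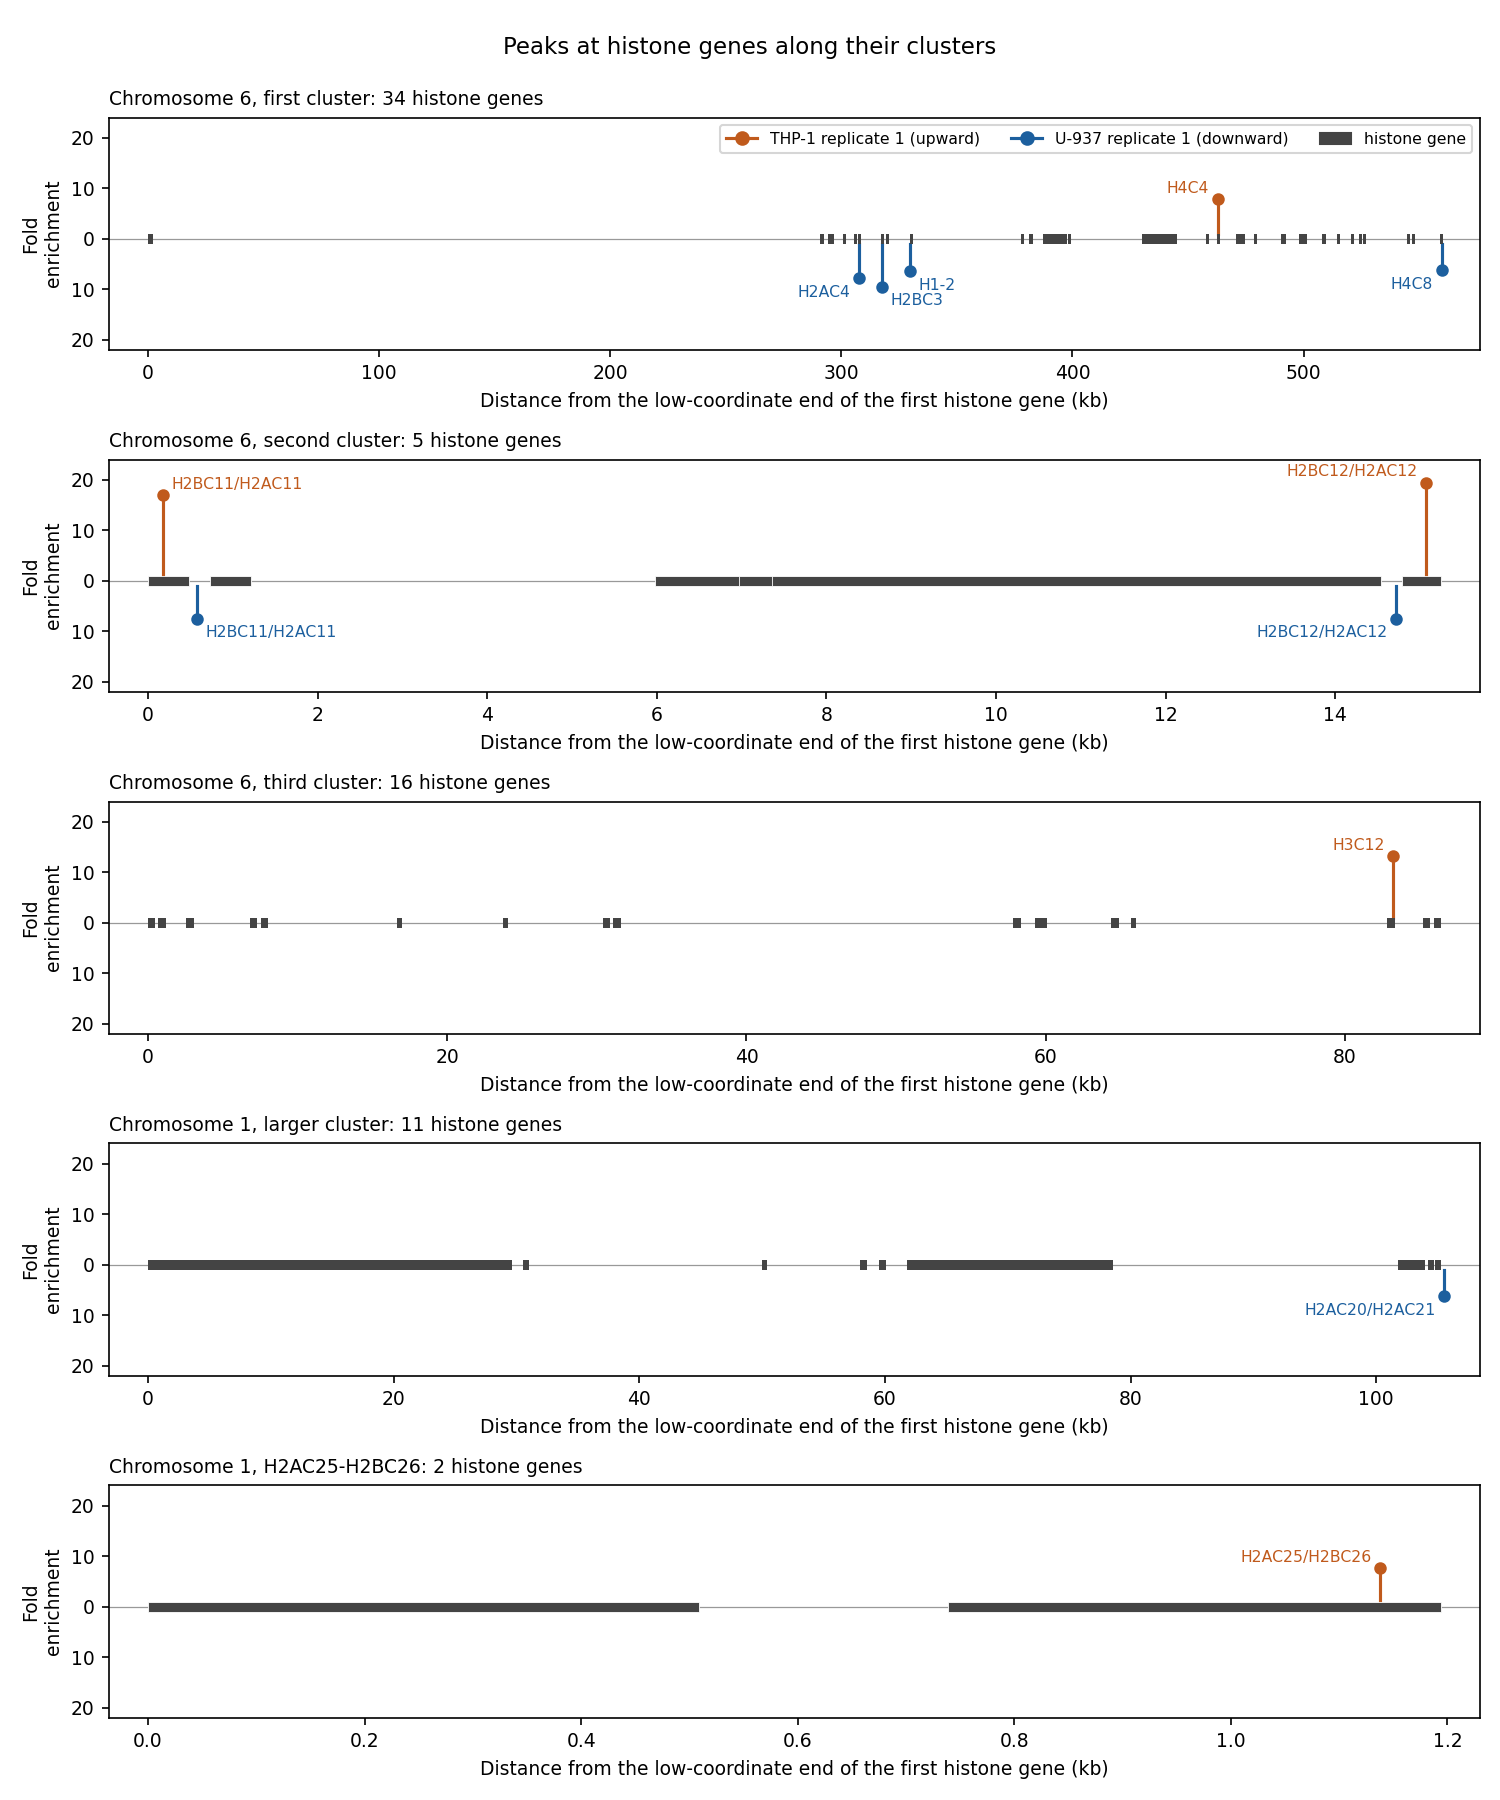
Histone genes (dark boxes on the zero line, drawn at a minimum width in the wider panels) along 5 clusters, with distance from the low-coordinate end of the first gene in kb (x axis). Each stem is a peak at its summit, upward for THP-1 and downward for U-937, with its length the authors' fold enrichment (y axis), which compares peaks within a list only. Both lines have stems in the second chromosome 6 cluster, and only THP-1 has one in the third.

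In the 2.17 Mb from the first to the last chromosome 6 member, all 4 THP-1 peaks and 6 of 8 U-937 peaks lay at histone genes. Over all chromosomes, 37 of 1037 THP-1 peaks and 1110 of 2272 U-937 peaks lay at protein-coding genes of any kind. Besides its 55 members, this stretch holds 98 tRNA genes and only 19 other protein-coding genes, so most of its protein-coding genes are histone genes. The other 2 U-937 peaks lay near tRNA genes, with summits 13 bp from TRV-CAC1-6 (fold 5.03) and 426 bp from TRI-AAT2-1 (fold 5.11). The H4C8 summit also lay 742 bp from a tRNA gene, TRX-CAT1-2, and the other histone peaks on chromosome 6 were 10.7 kb or more from one. Of the 19 other protein-coding genes, HMGN4, which encodes a nucleosome-binding protein, had a U-937 peak, the one at TRV-CAC1-6, and none had a THP-1 peak (exact upper limit 17.6%).

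The THP-1 peaks lay inside the histone genes themselves. The peak of highest fold ran from 27147198 to 27147521 on chromosome 6, wholly within H2AC12 (27147106 to 27147562), an H2A gene, with a fold enrichment of 19.4 and a -log10 q of 56.6. Its summit was 526 bp before the start of H2BC12, which it therefore also served. The next ran from 27132385 to 27132703, wholly within the H2B gene H2BC11 (27132316 to 27132795), with a fold of 17.0 and a -log10 q of 50.4, and served H2AC11 from 548 bp before its start. The H3C12 peak, 27890429 to 27890766, lay wholly within that H3 gene (27890315 to 27890826), with a fold of 13.2 and a -log10 q of 26.3. The H4C4 peak, 26188769 to 26189067, lay wholly within that H4 gene (26188710 to 26189112), with a fold of 7.91 and a -log10 q of 9.72. On chromosome 1 the peak at 228458235 to 228458587 had 91.8% of its bases in H2BC26 (228458103 to 228458558), an H2B gene apart from the main clusters, with a fold of 7.70 and a -log10 q of 10.2.

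Where the strand was known, the summits were set back from the gene's start. They lay 246 bp inside H4C4 (61.2% of its length from the start), 300 bp inside H2BC11 (62.6%) and 399 bp inside H2BC26 (87.7%). The strands of H2AC12 and H3C12 were not in the promoter table. Their summits were 278 and 362 bp from the low-coordinate end and 178 and 149 bp from the high one. For the 3 genes with a strand, the nearer boundary was the gene's end in every case.

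The U-937 summits lay outside the histone genes, and mostly before their starts, while 5 of the 7 peaks reached into a gene. The strongest peak ran from 26043647 to 26043929 with a fold of 9.50 and a -log10 q of 10.7, and its summit was 95 bp before the start of H2BC3, an H2B gene that held 23.7% of its bases. The peak at H2AC4, an H2A gene, ran from 26033519 to 26033779 with a fold of 7.79 and a -log10 q of 7.37, its summit 27 bp before the start and 38.3% of its bases in the gene. At the H4 gene H4C8 the peak ran from 26285645 to 26285868, with a fold of 6.21 and a -log10 q of 4.75, its summit 250 bp before the start. Neither this peak nor that on chromosome 1 reached into a histone gene. The chromosome 1 peak, 149888152 to 149888418, had its summit 261 bp before the start of the H2A gene H2AC21 and 815 bp past the end of H2AC20, with a fold of 6.28 and a -log10 q of 4.94.

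The summits of the second cluster lay between paired genes. One peak ran from 27132752 to 27133000, with its summit 105 and 143 bp before the starts of H2BC11 and H2AC11 and 17.7% of its bases in H2BC11. The other ran from 27146926 to 27147225, with its summit 176 bp before the start of H2BC12 and 72 bp from the near end of H2AC12, which held 40.0% of its bases. Both had the same fold, 7.51, and the same -log10 q, 6.93, values that 4 peaks of the list held. The U-937 list had 529 distinct folds among 2272 peaks, so its folds are coarse steps and equal values are common.

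H1-2, which encodes a linker histone, was the exception to the position before the start. Its peak, 26055576 to 26055787, had the summit 70 bp past the gene's end and 800 bp from its start, with a fold of 6.45, a -log10 q of 5.26 and 22.6% of its bases in the gene. Of the 7 U-937 peaks, 5 had a start as the nearest boundary with a known strand, 1 an end, and 1 lay nearest to H2AC12.

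**Figure D3:**
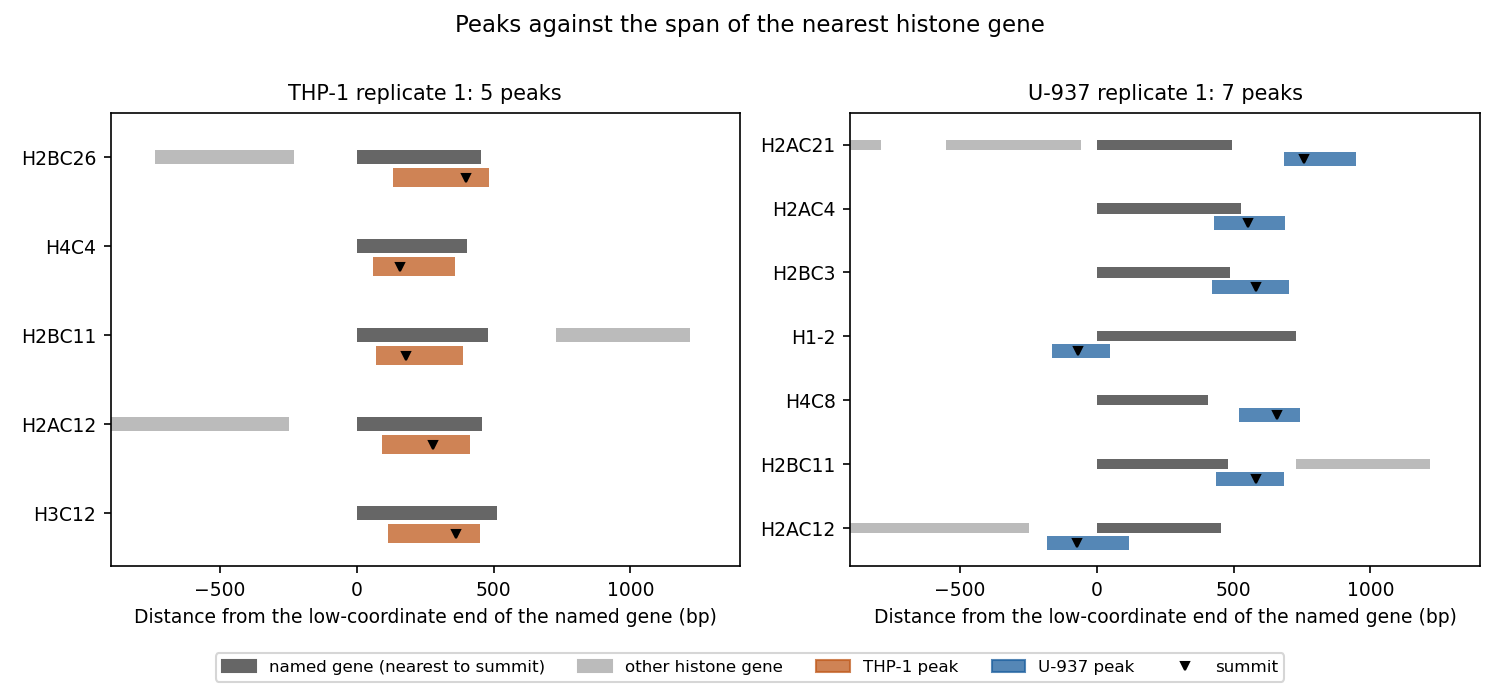
Position of each peak (coloured bars, with triangles at summits) against the histone gene nearest to its summit (dark bars, named at the left), in bp from that gene's low-coordinate end (x axis), with other histone genes in pale grey. All 5 THP-1 summits lie inside the named gene and all 7 U-937 summits lie outside it.

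Summits lay inside a member in 5 of 5 THP-1 peaks (exact 95% interval 47.8 to 100) and in 0 of 7 U-937 peaks (exact upper limit 41.0%). Of the peaks at other protein-coding genes, 11 of 32 THP-1 summits (34.4%, 18.6 to 53.2) and 400 of 1103 U-937 summits (36.3%, 33.4 to 39.2) lay inside the gene. Whole peaks lay inside a gene in 4 of 5 THP-1 and 0 of 7 U-937 cases at histone genes, and in 10 of 32 (31.2%) and 238 of 1103 (21.6%) at other protein-coding genes. Those other genes are of any length. At other genes of at most 1000 bp there were 3 THP-1 peaks, with 0 summits inside, and 2 U-937 peaks, with 1 inside, too few for a comparison with the short histone genes. This measure was chosen after the positions were seen and was not tested, and 5 and 7 peaks of single libraries are few.

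At the 4 members with a peak in both lines, the summits therefore did not sit on the same bases. These 4 were 5.80% of the 69 members (exact 95% interval 1.60 to 14.2), against 0.101% of all protein-coding genes with a peak in both. They are 2 pairs whose genes share a peak, so they rest on 2 peaks in each line. The shares and intervals here count them as 4 independent genes, which they are not. Of the members with a THP-1 peak, they were 50.0%, near the 16 of 36 (44.4%) among other protein-coding genes. Of the members with a U-937 peak, they were 40.0% (12.2 to 73.8), against 16 of 1385 (1.16%) among the others. At H2BC11 and H2AC11 the summits were 405 bp apart and 48 bp separated the peaks. At H2BC12 and H2AC12 the summits were 350 bp apart and the peaks overlapped by 28 bp, 9.33% of the shorter one. That was the 1 overlap among the members' peaks.

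Most H2A and H2B pairs had no peak, though counted by gene the share with one was higher among paired members than among the rest. There were 12 pairs of an H2A and an H2B gene with at most 300 bp between them (193 to 247 bp, median 237), of which 11 were head to head and 1, H2BC12 with H2AC12, had a strand not given. The 24 paired members had a THP-1 peak in 6 cases (25%, 9.77 to 46.7) and a U-937 peak in 5 (20.8%, 7.13 to 42.2), against 2 (4.44%, 0.543 to 15.1) and 5 (11.1%, 3.71 to 24.1) of the other 45 members. The shares over all protein-coding genes were 0.221% in THP-1 and 7.02% in U-937. Genes of a pair share peaks, and counted by peak the 24 paired members had 3 in each line. The other 45 had 2 in THP-1 and 5 in U-937, where the peak at H2AC20 and H2AC21 counts in both groups. The intervals overlap, and this split was chosen after the values were seen and was not tested. A THP-1 peak served 3 pairs and in 0 of them lay between the genes. A U-937 peak served 3 pairs and lay between the genes in 2, H2BC11 with H2AC11 and H2BC12 with H2AC12. The other 9 pairs in each line had no peak within 1000 bp of either gene.

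Histone peaks stood high among the THP-1 peaks at genes, whereas those of U-937 lay on both sides of the median of its peaks at genes. Their median fold in THP-1 was 13.2 (7.70 to 19.4) against 5.54 (3.77 to 18.4) for the 32 peaks at other protein-coding genes and 6.57 for all 1037 peaks on chromosomes. The H2AC12 peak had the highest fold of the 37 THP-1 peaks at protein-coding genes, though not the highest -log10 q (56.6 against 64.6), and ranked 73 of the 1037 by fold, with H2BC11 at 100, H3C12 at 158, H4C4 at 398 and H2BC26 at 413. In U-937 the median was 7.51 (6.21 to 9.50) against 6.59 (2.89 to 15.3) for the 1103 others. The H2BC3 peak ranked 200 of 2272, and H4C8 ranked 1114. The authors' fold is relative to a background that is not stated and was not compared between lists. Histone peaks were 299 to 353 bp wide in the THP-1 list and 212 to 300 bp wide in the U-937 list, near the medians for peaks at other protein-coding genes, 335 and 252 bp.

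**Figure D4:**
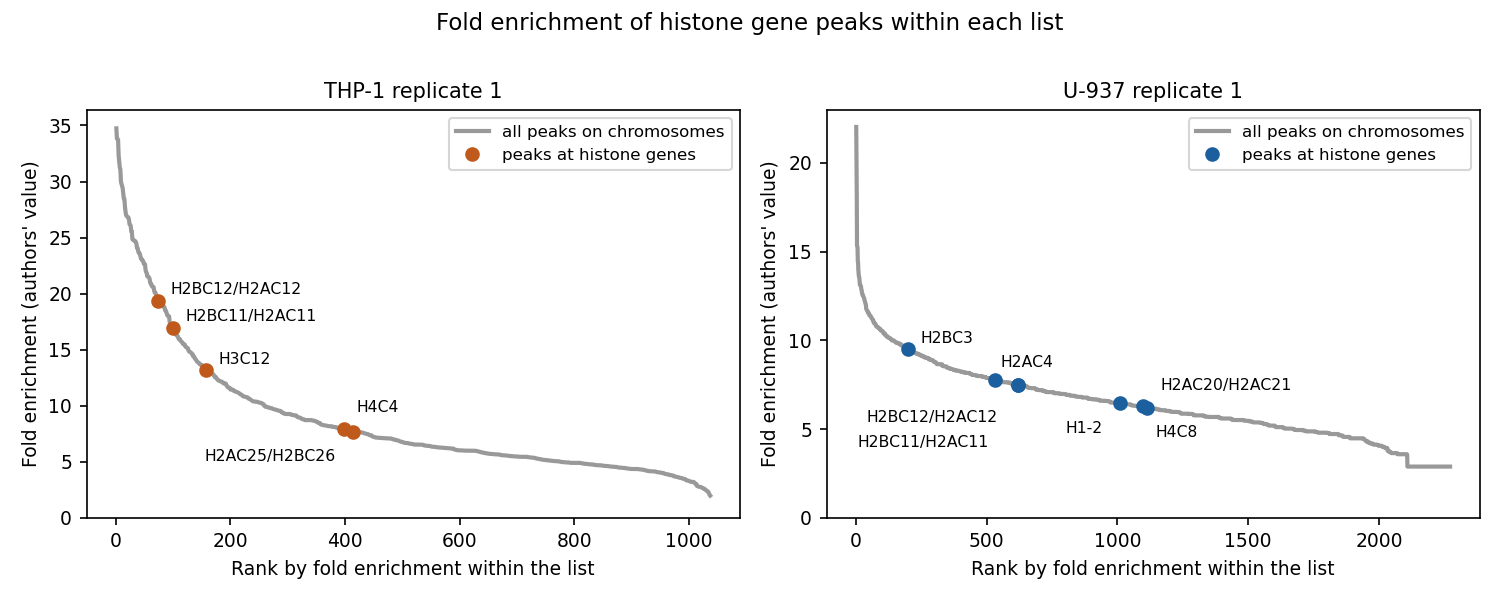
The authors' fold enrichment (y axis) of every peak on chromosomes, ranked within its own list (x axis, grey line), with peaks at histone genes as coloured points. THP-1 points range from rank 73 (fold 19.4) to rank 413 (fold 7.70), and U-937 points from rank 200 (fold 9.50) to rank 1114 (fold 6.21).

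The members nearest to the limit show what the window of 1000 bp decided. The farthest member counted was H2AC25 (629 bp) for the THP-1 list and H2AC20 (815 bp) for the U-937 list. The nearest not counted in THP-1 were H2AC17 at 2022 bp, H2BC17 at 2748 bp and H2BC6 at 4636 bp, and in U-937 they were H2BC21 at 1544 bp, H3C2 at 1546 bp and H3C3 at 1576 bp. All 6 were next to a peak already counted for another histone gene. Within 500 bp, 5 members had a THP-1 peak (0.131% of all protein-coding genes), H2AC11, H2BC12 and H2AC25 being lost as partners of the gene that holds the peak, and 9 had a U-937 peak (6.23% of all genes), without H2AC20. Within 3000 bp, 10 members had a THP-1 peak (0.498% of all genes) and 13 a U-937 peak (8.22%), from the same 5 and 7 peaks. Counting any base of the peak in place of the summit gave the same 8 and 10 members (0.267% and 7.17% of all genes). With a -log10 q of at least 5, all 8 THP-1 members (0.151% of all genes) and 7 of the 10 U-937 members (3.93%) kept a peak, and H2AC20, H2AC21 and H4C8 did not.

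The promoter windows of the members, 250 bases before to 50 after the start, were searched for 5 motifs on both strands, and 64 of 69 members had a window. TATAAA lay in 42 (65.6%, against 11.5% of all 35116 windows in the table), CCAAT in 54 (84.4%, against 34.6%) and ATTTGCAT in 26 (40.6%, against 1.77%). CCAAT was in every H1, H2A, H2B and H3 window and in 3 of 13 H4 windows. The octamer was in 14 of 18 H2B and 11 of 16 H2A windows, which overlap where the genes are paired, in 1 H3 window and in none of the 13 H4 windows. That H3 window, of H3C4, holds the same bases as the H2AC7 window. The forkhead letters GTAAACA lay in 2 windows (3.12%, against 3.42% of all), those of the paired testis histone genes H2AC1 and H2BC1, which had no peak in either line. TTTGGCGC, one form of the E2F site, lay in 0 of 64 (0.652% of all).

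Of the 9 windows of members with a U-937 peak, 7 held TATAAA, 8 held CCAAT, 7 held the octamer and 0 held GTAAACA. The 2 without the octamer were those of H1-2 and H4C8, so the 7 with it were all of H2A or H2B genes. Over all members, 11 of 16 H2A and 14 of 18 H2B windows held it. The H2BC11 and H2AC11 windows overlap, so they are not separate cases. Of the 6 windows of members with a THP-1 peak, 4 held TATAAA, 5 held CCAAT, 3 held the octamer and 0 held GTAAACA. These matches describe letters in the windows only, not under the peaks. The THP-1 peaks lay outside the windows of H2BC11, H2AC11, H2BC12, H2AC25 and H2BC26, and only the edge of the H4C4 peak reached into its window. The U-937 peaks at H1-2 and H2AC20 also lay outside those genes' windows. Other spellings of the forkhead site were not searched.

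Some histone genes are near copies of each other, and how reads matching several copies were placed is not given in the sources used here. Among the 64 windows, 10 were at least 90% identical to another member's, those of H4C14, H4C15, H3C14, H3C15, H2AC18, H2AC19, H3C4, H2AC7, H4C11 and H4C12, the H3C4 and H2AC7 windows being the same bases. None of these 10 had a peak in either line. The shares over all protein-coding genes were 0.221% in THP-1 and 7.02% in U-937, so none among 10 lies near the background. The windows of H2BC11 and H2BC12 were most like each other (74.4% identical), that of H4C8 most like H4C5 (70.2%) and that of H4C4 most like H4C2 (57.1%). The sequence inside the genes, where the THP-1 peaks lay, was not analysed here.

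Several genes on a list for histone mRNA transcription and 3′ end processing carried U-937 peaks, and most did not. Of 25 such genes, 8 had a U-937 peak (32.0%, 14.9 to 53.5), against the 7.02% of all protein-coding genes, and 0 had a THP-1 peak (exact upper limit 13.7%), where the share over all genes is 0.221%. NPAT, the coactivator of the histone gene clusters, had a fold of 8.66, from a peak that also served the neighbouring ATM. CASP8AP2, whose product joins NPAT in the nuclear bodies that form at the histone loci, had a fold of 5.60. SLBP, which encodes the protein that binds the histone mRNA stem-loop, had 4.92 at a -log10 q of 2.65. The 3′ end processing genes LSM10, LSM11, ZNF473, CPSF1, CPSF2, CPSF3, SYMPK, CSTF2 and ERI1 had no peak in either list. Nor did HINFP, NFYB, NFYC, E2F1, CCNE1, CCNA2, COIL and NELFE, the remaining genes without one. POU2F1, the octamer-binding factor, had 9.99, NFYA, a subunit of the CCAAT-binding factor, had 8.08, and the zinc finger factor gene YY1 had 4.91. CDK2, which phosphorylates NPAT, had 8.37 from a summit 956 bp away that also served RAB5B, and its partner CCNE2 had 4.72 from a peak shared with NDUFAF6. At a -log10 q of at least 5, 4 of the 25 kept a peak (16.0%, against 3.93% of all genes): NPAT, POU2F1, NFYA and CDK2.

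Histone chaperones, which carry histones to and from DNA, had a U-937 peak in 6 of 25 cases (24%, 9.36 to 45.1), against 7.02% of all protein-coding genes, and a THP-1 peak in 0, against 0.221%. The 6 were ANP32E, an H2A.Z chaperone (fold 9.13), the nucleolar chaperone NPM1 (fold 8.41), RBBP4 (fold 6.15, from a peak shared with ZBTB8OS), the H3.3 chaperone DAXX (fold 6.07, shared with ZBTB22), and ASF1A (fold 4.87) and ASF1B (fold 4.79), which hand over H3 with H4. At a -log10 q of at least 5, 2 of the 25 kept a peak, ANP32E and NPM1, against 3.93% of all genes. Histone genes outside the clustered set, most of them for variants made throughout the cell cycle, had a U-937 peak in 2 of 28 cases (7.14%, 0.877 to 23.5), near the 7.02% of all genes. They were CENPA, the centromeric H3 variant (fold 8.91), and H2AX, the variant marked at DNA breaks (fold 4.84). At a -log10 q of at least 5, 1 of the 28 kept a peak, CENPA (3.57%, against 3.93% of all genes). None of the 28 had a THP-1 peak (exact upper limit 12.3%, against 0.221% of all genes).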

How the data were processed

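Each library has its own deposited peak list in the narrowPeak layout, without a header. Bowtie2 and Picard were used on build hg38, per the submitters' processing notes; the sources used here name no peak caller, background or read depth, so depth is unknown. The deposited values used were the fold enrichment (a linear ratio by the authors, column 7 of the layout), the -log10 p-value and the -log10 q-value; the deposited integer score follows from these and was not used. Peak names in the THP-1 list carry a prefix other than the library's title. Replicate 1 held 1282 peaks in THP-1, of which 1037 lay on chromosomes, and 2272 in U-937; the other libraries stated that no peaks were found.

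Gene spans came from the RefSeq table of GRCh38.p14, without 831 of 59792 genes whose position broke the order of their chromosome, and strands from its promoter table, which had 64 of the 69 members. Coordinates are hg38, counted from 1. Summits were matched to gene starts and ends in Python 3.11.15 with pandas 2.3.3, shares have exact (Clopper-Pearson) 95% intervals from scipy 1.17.1, and promoter windows were aligned globally with Biopython 1.88. The matching was tested on simulated data. Of 30 symbols listed for histone genes outside the clustered set, 28 were used, since the table gives H2BU1 and H4-16 as other names of members. The members, gene lists and motifs were chosen with earlier results of these data known, and no enrichment test was made. Values are given for every member with a peak and for the nearest 3 without one in each line. Alternatives were a -log10 q of at least 5, windows of 500 and 3000 bp, any base of the peak in place of the summit, and a stricter overlap.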

Additional observations from a re-analysis of the deposited data

How the results depend on the processing

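With a window of 500 bp in place of 1000 bp, 5 members had a THP-1 peak in place of 8, and 2 members had one in both lines in place of 4. Requiring the overlap to cover at least 50% of the shorter peak left 0 overlapping pairs in place of 1. Counted as summits within 250 bp of a start, THP-1 had 1 (H4C4) in place of 0 summits whose nearest boundary was a start, and U-937 had 5 by either count. The count by nearest boundary leaves out 2 THP-1 peaks and 1 U-937 peak whose nearest gene had no strand given. The other counts stayed within 1.5 times the reported ones under these windows, a -log10 q of at least 5 and counting any base of the peak, and the median folds were 13.2 in THP-1 and 7.51 in U-937 each time. No paired analysis was possible because the lines had 1 library with peaks each, and for the same reason no library could be left out. The lists give no read depth, so a gene without a peak may lie below what these libraries could detect.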
